A study of Xenopus tropicalis with 8 samples.

Results

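The genes nek2, kif20a, top2a and smc4 act in mitosis, and their transcript levels were followed in frog embryos exposed to a textile dye. They were chosen by their fold change and call between exposed and control arrays, so that difference is described for them and is not tested. Each of the 4 genes was read by 1 probe, and the 4 probes lay among 32899 distinct probes on the array, of which 5891 could be matched to a gene. The probe of smc4 was printed in 2 spots, so that 5 of 43803 spots belonged to these genes. The probes of nek2 and kif20a are classed by the array design as cross-hybridising, and those of top2a and smc4 as specific. All 5 spots were well above background on each of the 8 arrays, and none carried an outlier flag.

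The samples were whole embryos of Xenopus tropicalis, the western clawed frog. The first group, called DY7, had 4 samples exposed to 887 ppm of Disperse Yellow 7, an azo dye for synthetic fabrics. The second group, the control, had 4 samples with no treatment, and no carrier solvent is named for either. The labels give stages 12 to 46 for all 8 samples without the stage at which RNA was taken. Nothing in them says whether the samples of a group came from separate clutches, so the p-values below measure only the spread between these samples. Total RNA of each sample was labelled with Cy3 and hybridised to 1 array, and the arrays lay on 2 slides, with replicates 1 and 2 of both groups on slide 1 and replicates 3 and 4 on slide 2.

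Cells that enter mitosis raise a shared set of transcripts late in the cell cycle, under transcription factors that include FoxM1 and B-Myb. In vertebrate cells the kinase Nek2 loosens the link between duplicated centrosomes, and the kinesin Kif20a carries regulators to the spindle midzone where the cell will cleave. Topoisomerase II alpha, the product of top2a, untangles sister DNA molecules, and Smc4 is a core subunit of condensin, the complex that compacts chromosomes. Transcripts of this set are abundant in dividing tissue and scarce in cells that have left the cycle. In whole embryos a larger share of dividing cells and more transcript per dividing cell cannot be told apart.

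The arrays of the DY7 group were dimmer than those of the control group. The 75th percentile of the processed signal was 168, 126, 181 and 202 on DY7 arrays 1 to 4, against 243, 162, 224 and 327 on control arrays 1 to 4. Each DY7 array thus had 0.619 to 0.810 times the brightness of the control array of the same number. Probes well above background made up 64.0% to 73.5% of all probes on the DY7 arrays and 51.6% to 75.9% on the control arrays, the lowest being control 2. Over 20289 tested probes, arrays correlated at 0.980 to 0.993 within DY7, at 0.972 to 0.995 within the controls and at 0.955 to 0.987 between the groups. Array values below were scaled to this 75th percentile unless they are called unscaled. The median log2 fold change of 3436 named genes was 0.077 with it and -0.40 without it, and the part of overall brightness in the differences below was not tested.

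The transcripts of nek2, kif20a, top2a and smc4 were all at higher scaled levels in DY7 embryos, and nek2 differed most. The 4 genes were called higher in limma's fit, where 316 of 3436 named genes were (9.2%, or 14.5% with those called lower), as were 9.06% of all probes (14.1% in both directions). Nothing is read from that count because the call chose them. The calls of the 4 genes depended on the processing, and so did the share of all named genes called higher. All 4 were called when probes had to be above background on all 8 arrays (10.8% of named genes) and with the replicate block (15.7%). With median scaling (6.14%), with quantile normalization (9.72%), in the authors' matrix (11.4%) and with slide as a block (8.59%) 3 were called, smc4 being the exception each time. With no filter on dim probes only nek2 was called (1.5%). None of the 4 was called without scaling (0.204%), with normexp background correction (0.0582%), within slide 1 (0%) or within slide 2 (0.146%). When 1 array was left out 2 to 4 were called, against 4.02% to 11.1% of named genes. For 3 of the 4 genes the scaled values of the groups did not overlap, as for 12.3% of named genes with all DY7 arrays on top, and unscaled for none, against 0.815%. Without scaling the direction stayed the same for nek2, kif20a and top2a with overlapping groups, and turned for smc4.

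**Figure D1:**
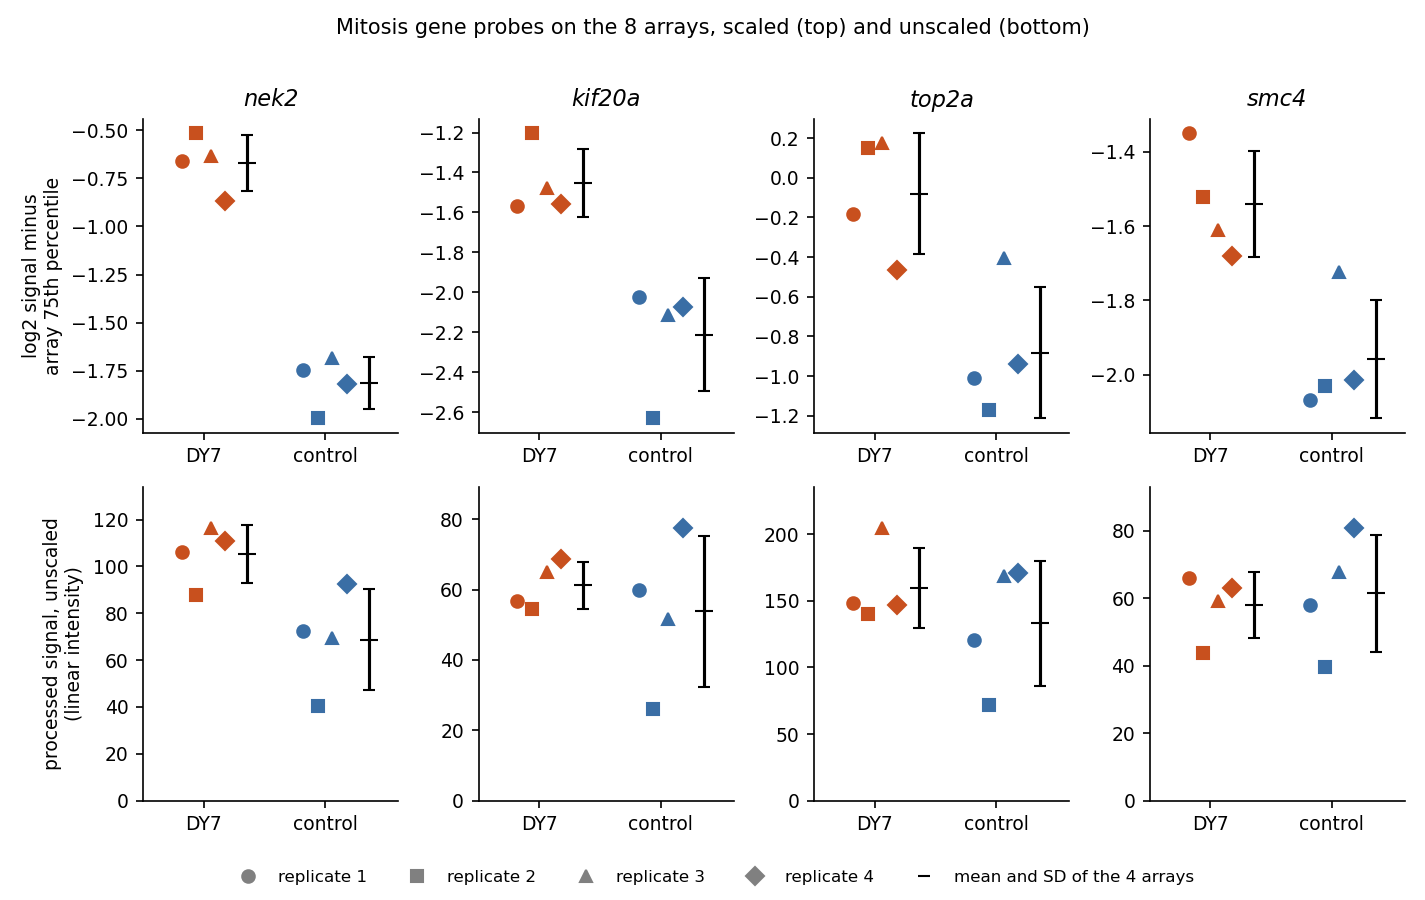
Values of the nek2, kif20a, top2a and smc4 probes on the 8 arrays. Upper panels give log2 processed signal minus the array's 75th percentile, lower panels the unscaled processed signal (linear, from 0); DY7 is left of control, symbols mark the replicate, and bars are mean ± SD of 4 arrays. After scaling nek2, kif20a and smc4 do not overlap between groups and top2a does; unscaled, all 4 overlap.

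The kinase gene nek2 showed the clearest separation. Its processed signal, unscaled, was 106, 87.9, 116 and 111 on DY7 arrays 1 to 4, against 72.5, 40.6, 69.5 and 92.6 on control arrays 1 to 4. Only control 4, the brightest of the 8 arrays, reached into the DY7 range. Relative to the 75th percentile of its array, nek2 stood at 63.2%, 69.9%, 64.4% and 54.7% on the DY7 arrays, against 29.8%, 25.0%, 31.1% and 28.4% on the control arrays. The lowest DY7 array was well over the highest control array on this scale. The log2 fold change was 1.14 ± 0.11 (SE, n = 4 arrays per group), a 2.2-fold higher level in DY7, and it was 0.67 without scaling. This placed nek2 36th when the 3436 named genes were ranked by their rise. By rank within the array, which needs no scaling, nek2 lay at percentile 67.7 ± 1.55 of all probes in DY7 and 54.8 ± 0.967 in control (SD, n = 4 each).

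The kinesin gene kif20a was separated less widely. Its unscaled signal was 56.8, 54.6, 65.0 and 68.6 on DY7 arrays 1 to 4, against 59.8, 26.2, 51.6 and 77.5 on control arrays 1 to 4. The unscaled values were intermixed, and control 2 was far below every other array. Scaled, kif20a stood at 33.8%, 43.4%, 35.9% and 33.9% of the 75th percentile in DY7, against 24.6%, 16.1%, 23.1% and 23.7% in control. The groups did not overlap, and 3 control arrays were close together with control 2 beneath them. The log2 fold change was 0.76 ± 0.15 (SE, n = 4 per group), or 1.69-fold, and it was 0.29 without scaling. Leaving out control 2 gave 0.62. The kif20a spot was faint, at 1.61 to 3.17 times its local background in DY7 and 1.31 to 3.15 times in control.

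For the topoisomerase gene top2a the groups overlapped even after scaling. Its unscaled signal was 148, 140, 205 and 147 on DY7 arrays 1 to 4, against 121, 71.9, 169 and 171 on control arrays 1 to 4. Scaled, it stood at 88.0%, 111%, 113% and 72.6% of the 75th percentile in DY7, against 49.7%, 44.4%, 75.6% and 52.2% in control. Control 3 exceeded DY7 4, while the other 3 control arrays were below all DY7 arrays. The log2 fold change was 0.80 ± 0.20 (SE, n = 4 per group), or 1.74-fold, with the widest within-group SD of the 4 genes, 0.32 on the log2 scale. It was 0.33 without scaling. Under median scaling, where the log2 fold change was 0.68, and in the authors' deposited log2 matrix, where it was 0.81, the groups no longer overlapped.

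The condensin gene smc4 differed least. Its unscaled signal, averaged over 2 spots, was 66.0, 43.8, 59.3 and 63.0 on DY7 arrays 1 to 4, against 58.0, 39.6, 67.7 and 80.9 on control arrays 1 to 4. Control 3 and control 4 were the brightest of the 4 control arrays for it, and control 4 was the brightest of all 8. Scaled, smc4 stood at 39.2%, 34.8%, 32.8% and 31.2% of the 75th percentile in DY7, against 23.9%, 24.4%, 30.3% and 24.8% in control. The groups were separated only by the narrow gap between DY7 4 and control 3. The log2 fold change was 0.42 ± 0.12 (SE, n = 4 per group), or 1.34-fold, and it turned to -0.055 without scaling. Of the named genes, 18.7% showed a larger rise than smc4.

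The 2 spots of the smc4 probe gave a technical check on every array. Spot 2 over spot 1 was 0.967 to 1.09 on the DY7 arrays, and 0.954, 0.531, 1.06 and 1.05 on control arrays 1 to 4. On control 2 the spots read 54.4 and 28.9, so that one array's value depended on which spot was used. The log2 fold change was 0.31 from spot 1 alone and 0.53 from spot 2 alone, either of which lay within 0.15, the within-group SD of smc4, of the value from both. Neither spot alone gave a call of smc4 (limma adjusted p = 0.13 from spot 1 and 0.0668 from spot 2).

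The replicate numbers of the labels gave 4 pairs of arrays, each pair on 1 slide. After scaling, DY7 was higher than the control of the same number in 16 of 16 comparisons over the 4 genes, and without scaling in 11. Nothing is read from these counts, because the genes were chosen by this difference on the same arrays and share their scaling. For nek2 the log2 differences were 1.08, 1.48, 1.05 and 0.95 in pairs 1 to 4. For kif20a they were 0.46, 1.43, 0.64 and 0.52, so that pair 2 stood apart. The differences of top2a were 0.83, 1.32, 0.58 and 0.47, again highest in pair 2. Those of smc4 were 0.72, 0.51, 0.11 and 0.33, highest in pair 1. Unscaled, nek2 was higher in DY7 in 4 of 4 pairs, top2a in 3, and kif20a and smc4 in 2 each.

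**Figure D2:**
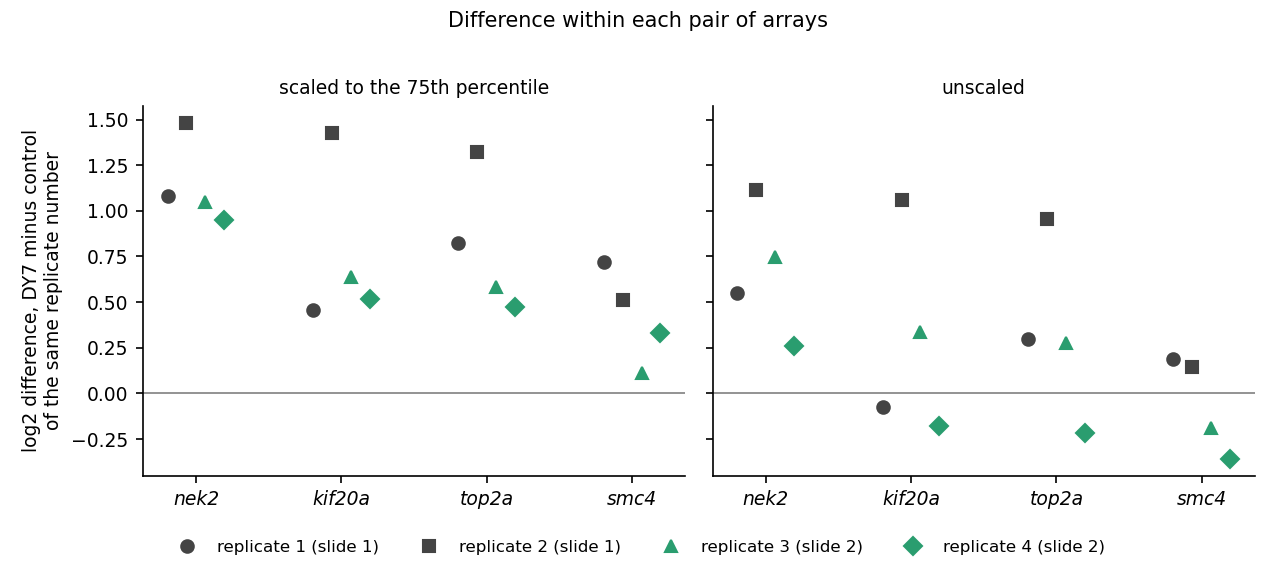
Log2 difference between the DY7 array and the control array of the same replicate number for the nek2, kif20a, top2a and smc4 probes, scaled (left) and unscaled (right); grey symbols are pairs on slide 1 and green symbols pairs on slide 2. All 16 scaled differences are above 0, and 11 of the 16 unscaled ones are, for genes that were chosen by this difference.

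Every one of the 4 genes had a larger difference on slide 1 than on slide 2. Within slide 1, with 2 arrays in each group, the log2 fold changes were 1.28 for nek2, 0.94 for kif20a, 1.07 for top2a and 0.61 for smc4. Within slide 2 they were 1.00 for nek2, 0.58 for kif20a, 0.53 for top2a and 0.22 for smc4. The difference between slides was not tested. Without control 2, the array with the fewest detected probes, the values over both slides were 1.08 for nek2, 0.62 for kif20a, 0.70 for top2a and 0.39 for smc4. The median of all named genes was 0.11 within slide 1 and 0.038 within slide 2. Fits with slide or replicate blocks gave the same log2 fold changes, since the design is balanced.

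Background correction also moved the values. The raw spot medians were corrected by limma's normexp method with an offset of 50. The log2 fold changes were then 0.52 for nek2, 0.16 for kif20a, 0.53 for top2a and 0.10 for smc4. The offset is added to every spot and narrows the fold changes of dim spots most. Its part in these values was not tested. A few spots with extreme local background weighed on the normexp correction. Once local backgrounds of over 2 array medians were set to the array median, an alternative chosen after seeing the data, the values were 0.73, 0.42, 0.57 and 0.31 in the same order, and all but smc4 were called, against 5.12% of named genes called higher. Quantile normalization gave 1.08, 0.66, 0.78 and 0.32, and the authors' deposited log2 matrix gave 1.11, 0.69, 0.81 and 0.35. All these values are above 0 for the 4 genes, and unscaled smc4 at -0.055 is the exception among the settings tried.

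**Figure D3:**
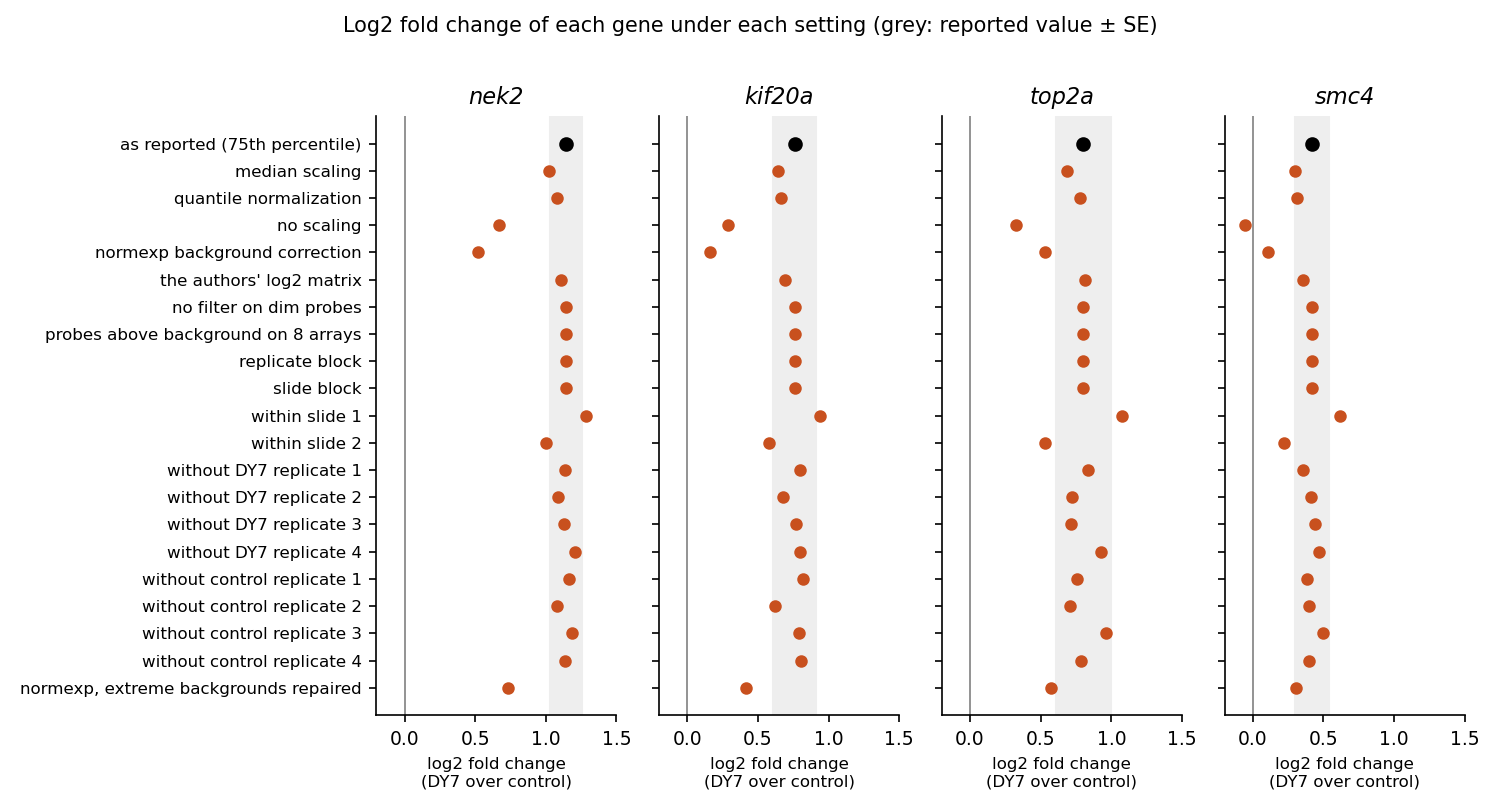
Log2 fold change, DY7 over control, of nek2, kif20a, top2a and smc4 under each processing setting. The black point and grey band are the reported value ± SE. All points are above 0 except smc4 without scaling, at -0.055, and the values with no scaling and with normexp are the lowest for nek2, kif20a and smc4.

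The 4 genes varied together within groups to different degrees. Once each group's mean was removed, the deviations of nek2 correlated over the 8 arrays with those of top2a (Pearson r = 0.84) and kif20a (r = 0.81), and less with those of smc4 (r = 0.52). The values were r = 0.59 for top2a with smc4, 0.54 for kif20a with top2a and 0.12 for kif20a with smc4. These are descriptions over arrays that share scaling, slide and brightness. Without control 2 the correlation of nek2 with kif20a was 0.68, that of kif20a with top2a was 0.36 and that of kif20a with smc4 was -0.14. DY7 4 was below its group's mean for all 4 genes, and control 3 was above its group's mean for all 4.

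**Figure D4:**
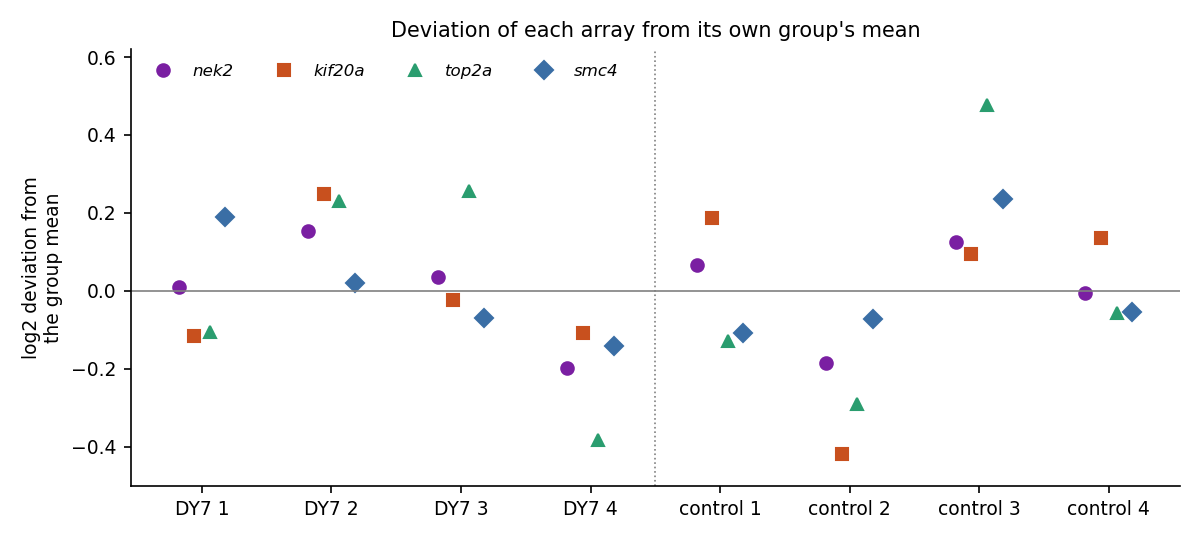
Deviation of nek2, kif20a, top2a and smc4 from the mean of their own group on each of the 8 arrays, in log2 units, with DY7 arrays on the left and control arrays on the right. DY7 4 is below 0 and control 3 above 0 for all 4 genes, and kif20a on control 2 is at -0.42.

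Of the measured genes listed beside these 4 as partners, family members or other mitotic genes, not all were called. Of 35 such genes listed, 8 had a named probe and 5 were tested. Only 1 of the 5 was called in limma's fit, and it was higher, where 9.2% of all named genes were. This was the other topoisomerase II gene, top2b, whose product also acts in cells that no longer divide. It stood at -0.35, -0.053, -0.14 and -0.94 on DY7 arrays 1 to 4, against -1.36, -1.09, -0.87 and -1.35 on control arrays 1 to 4 (log2 relative to the 75th percentile). DY7 4 was again the lowest DY7 array, just under control 3. The log2 fold change of top2b was 0.80 ± 0.20 (SE, adjusted p = 0.0303, limma), and 0.32 without scaling, where it was not called. Nor was top2b called with normexp background correction, with no filter on dim probes or within either slide. With normexp after repair of extreme local backgrounds, chosen after seeing the data, top2b was called. The call of top2b was also lost on leaving out DY7 1, DY7 2, DY7 3, control 1 or control 4, with adjusted p up to 0.0912.

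The partner of Smc4 in every condensin complex is Smc2. Its transcript had a log2 fold change of 0.12 ± 0.11 (SE, limma adjusted p = 0.468). The smc2 probe stood at 1.24, 0.96, 1.04 and 1.23 on DY7 arrays 1 to 4 and at 1.08, 0.97, 0.87 and 1.1 on control arrays 1 to 4, with the groups intermixed. The regulatory subunit genes of both condensin types, ncapd2 (0.15 ± 0.27, adjusted p = 0.701) and ncapd3 (0.23 ± 0.11, adjusted p = 0.184), did not pass the test either. The mitotic cyclin gene ccnb2, read by a cross-hybridising probe, had a log2 fold change of -0.21 ± 0.14 (adjusted p = 0.313). Whether smc4 differed from smc2 in its response was not tested, and a gene that did not pass is not thereby shown to be unchanged. No other mitotic kinase gene was tested beside nek2.

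Over the lists of cell division genes, 303 genes were listed, 75 had a named probe and 51 were tested beside the 4 members. Of these, 4 were called higher and 0 lower, which is 7.84%, against 9.2% called higher and 5.3% called lower of all named genes. The share called higher is near the background share. Of the called genes, cep57 and cdca2 passed the filter only through the DY7 arrays, so nothing is read from this share. The median log2 fold change was 0.17, against 0.077 over all named genes, and 39 of 51 were above 0, as were 58.3% of all named genes. Some of the 51 passed the filter only through the DY7 arrays, so nothing is read from this median and count. Of 37 well above background on all 8 arrays, 3 were called higher and 1 lower. Of 2640 named genes kept by that filter, 286 were called higher and 220 lower. Without scaling the median was -0.30, against -0.40 over all named genes, and 6 of 51 were above 0, as were 533 of 3436 named genes. None of the 51 was called without scaling (4 had an unadjusted p under 0.05). Of 3436 named genes 116 were, 7 higher and 109 lower. In the fit that pairs the replicates as a block, 11 were called higher and 2 lower, against 15.7% and 9.11% of all named genes (24.8% together).

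**Figure D5:**
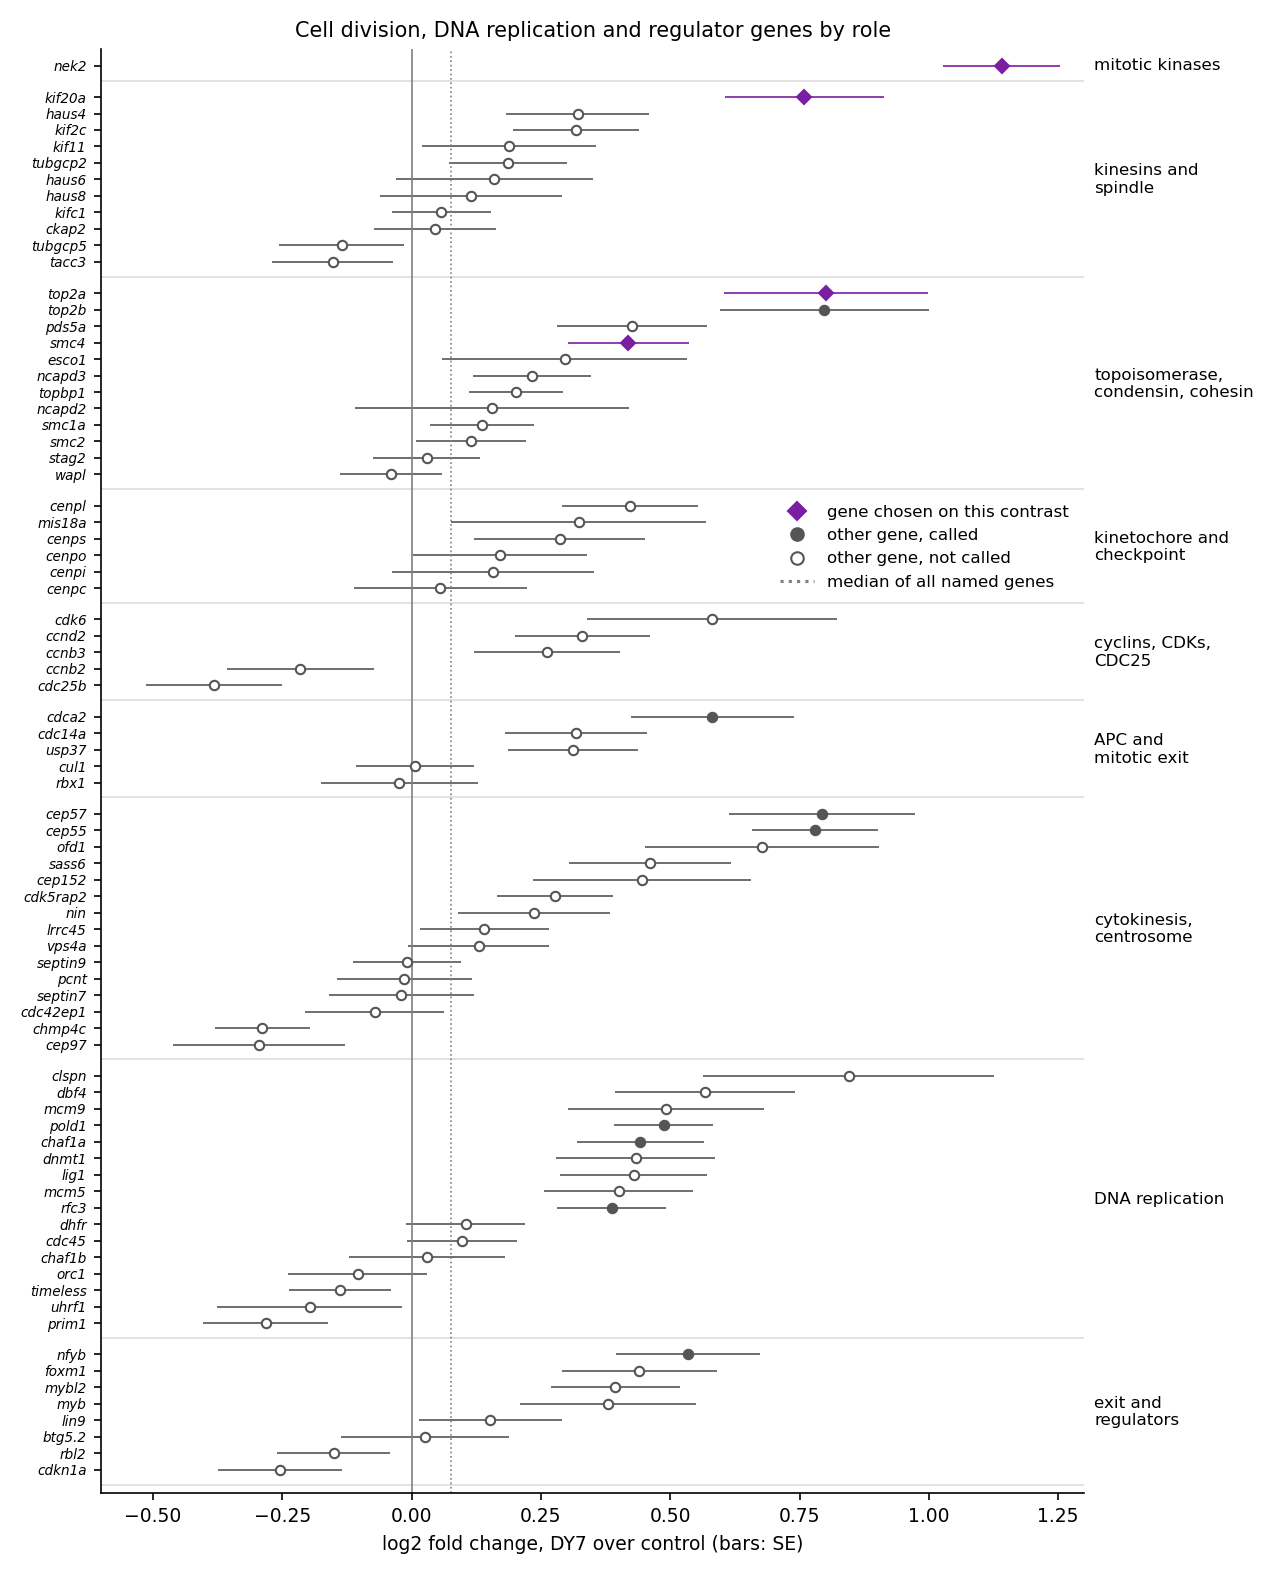
Log2 fold change, DY7 over control, with SE, of each tested cell division, DNA replication and regulator gene, grouped by role. Purple diamonds are nek2, kif20a, top2a and smc4, filled circles other genes called at an adjusted p under 0.05, and the dotted line the median of all named genes, 0.077. Most of the other genes are between the 0 line and the values of nek2, kif20a and top2a.

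Of the genes that act in cytokinesis and at the centrosome, 2 of 15 were called higher, against 9.2% of all named genes. The transcript of cep55, which recruits the machinery that cuts the bridge between daughter cells, stood at 0.32, 0.58, 0.31 and 0.15 on DY7 arrays 1 to 4, against -0.44, -0.23, -0.56 and -0.53 on control arrays 1 to 4. The groups did not overlap. It rose by 0.78 ± 0.12 on the log2 scale (SE, limma adjusted p = 0.0055), and was called on leaving out any 1 of the 8 arrays. The centrosome gene cep57 rose by 0.79 ± 0.18 (adjusted p = 0.0223). Its call was lost without DY7 2, without DY7 3 or without control 4, and its probe was well above background on 3 of the 4 control arrays. The calls of both genes were also made with median scaling and quantile normalization. Both were lost without scaling (0.31 for cep55 and 0.32 for cep57), with normexp (0.52 for cep55 and 0.061 for cep57) and within either slide. With normexp after repair of extreme local backgrounds, chosen after seeing the data, cep55 was called and cep57 was not (0.43, limma adjusted p = 0.0726). With no filter on dim probes cep57 was not called (adjusted p = 0.0813). With the replicate block ofd1 was called higher and chmp4c lower, both named after their values were seen. The probe of ofd1 was well above background on 3 of the 4 control arrays and passed the filter only through the DY7 arrays.

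The remaining roles held 1 further called gene. The gene cdca2, whose product brings a phosphatase to chromosomes as they separate, rose by 0.58 ± 0.16 (SE, limma adjusted p = 0.0385). Its call was lost on leaving out any array except control 2 or control 4, and it was above background on 3 of 4 control arrays. With median scaling cdca2 was not called (adjusted p = 0.068), nor with quantile normalization (adjusted p = 0.0548). Its log2 fold change was 0.11 without scaling and 0.042 with normexp, again without a call. With normexp after repair of extreme local backgrounds, chosen after seeing the data, cdca2 was called. None of 10 kinesin and spindle genes, 6 kinetochore genes and 5 cyclin, CDK and CDC25 genes was called in limma's fit (2, 1 and 3 of them had an unadjusted p under 0.05). Nearest in each were kif2c (0.32 ± 0.12, adjusted p = 0.105, cross-hybridising) and haus4 (0.32 ± 0.14, adjusted p = 0.141), cenpl (0.42 ± 0.13, adjusted p = 0.0578) and cenps (0.29 ± 0.17, adjusted p = 0.252), and cdc25b (-0.38 ± 0.13, adjusted p = 0.0793, cross-hybridising) and ccnd2 (0.33 ± 0.13, adjusted p = 0.117). With the replicate block kif2c, cenpl and ccnd2 were called higher and cdc25b lower. So were cdk6, cdc14a and pds5a, each higher, which were named after their values were seen. The probe of cdk6 was well above background on 3 of 4 control arrays and passed the filter only through the DY7 arrays.

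DNA replication precedes mitosis, and 3 of 16 tested replication genes were called higher and 0 lower, against 9.2% and 5.3% of all named genes. The median log2 fold change was 0.39, against 0.077 over all named genes, and 12 of 16 were above 0, as were 58.3% of all named genes. Here too some genes passed the filter only through the DY7 arrays. These were clspn (0.84), dbf4 (0.57), mcm9 (0.49) and dnmt1 (0.43), so nothing is read from this median and count. Of 12 well above background on all 8 arrays, 3 were called higher, against 10.8% of named genes kept by that filter. Without scaling the median was -0.079, against -0.40. None of the 16 was called without scaling (2 had an unadjusted p under 0.05). Of 3436 named genes 116 were, 7 higher and 109 lower. The called genes were pold1, the catalytic subunit of DNA polymerase delta, at 0.49 ± 0.10 (SE, limma adjusted p = 0.0132, cross-hybridising), rfc3 of the clamp loader at 0.39 ± 0.11 (adjusted p = 0.0392) and the histone chaperone gene chaf1a at 0.44 ± 0.12 (adjusted p = 0.041). Unscaled, pold1 was at 0.014, and rfc3 and chaf1a turned to -0.086 and -0.031. None of the 3 was called with normexp or with no filter on dim probes. With median scaling none of the 3 was called, with adjusted p of 0.0775 for pold1, 0.204 for rfc3 and 0.209 for chaf1a, and with the slide block chaf1a was not. The call of pold1 was made without any 1 of the 8 arrays, that of rfc3 only without control 2, and that of chaf1a in none of these fits. With the replicate block 6 of the 16 were called higher, against 15.7% of all named genes. The additional ones, lig1, mcm5 and mcm9, were named after their values were seen.

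Among 8 tested genes that drive or end the expression of mitotic genes, nfyb was called higher, where 9.2% of all named genes were. It encodes a subunit of the factor that binds CCAAT boxes, which many mitotic promoters hold in mammals. Its log2 fold change was 0.53 ± 0.14 (SE, limma adjusted p = 0.0329, cross-hybridising probe). The gene had 2 tested probes, of which only this brighter one was read. On leaving out 1 array the call held only without DY7 4 or without control 3. With median scaling its adjusted p was 0.0502, and without scaling its log2 fold change was 0.061 (adjusted p = 0.915). The median of the 8 genes was 0.27, and -0.21 without scaling. The mitotic activators foxm1 (0.44 ± 0.15, adjusted p = 0.0775) and mybl2 (0.39 ± 0.13, adjusted p = 0.0629) did not pass. They were called higher with the replicate block (adjusted p = 0.0373 for foxm1 and 0.0321 for mybl2), as was myb, and each was named after their values were seen. The cell cycle inhibitor gene cdkn1a, named likewise, had -0.25 ± 0.12 (adjusted p = 0.173, cross-hybridising).

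The genes whose pattern over the 8 arrays was most like each member's were sought among 2979 named genes with a symbol. For nek2 these were hspa5, the main chaperone of the endoplasmic reticulum (r = 0.994), sqle of sterol synthesis (r = 0.992) and cntrl, which encodes the centriole protein centriolin (r = 0.989, cross-hybridising). For kif20a they were exosc3 of the RNA exosome (r = 0.986), fam114a1 (r = 0.982) and srm, spermidine synthase (r = 0.976). For top2a they were the matrix gene vcan (r = 0.994, cross-hybridising), gemin4 (r = 0.989) and znf385a (r = 0.988). For smc4 they were pde6c (r = 0.959), lhfpl2 (r = 0.952) and gsdme (r = 0.948). These correlations contain the difference between groups, and many genes that differ between the groups reach similar values. The probes of sqle, fam114a1, srm, vcan, znf385a, pde6c and lhfpl2 were well above background on only 3 of 4 control arrays. They passed the filter only through the DY7 arrays, so nothing is read from their likeness.

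With each group's mean removed, other genes came nearest. They were vgll1, trps1 and ssr3 for nek2 (r = 0.985, 0.964 and 0.962), and itgb3, hacd3 and parp11 for kif20a (r = 0.976, 0.963 and 0.957). For top2a they were sidt1, erbb2 and six4 (r = 0.992, 0.990 and 0.987), and for smc4 gpr158, frmpd3 and pcdh11x (r = 0.959, 0.926 and 0.925). No gene was among the nearest 3 of a member by both measures, and none of the 24 belonged to the cell division or replication lists. Those lists did not hold cntrl, the centriole gene near nek2. None of the 12 found with group means removed was called between DY7 and control. Of them, parp11, sidt1, frmpd3 and pcdh11x were well above background on only 3 of 4 control arrays.

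Markers of other tissues were set beside these values, since the embryo mixes tissues that divide at different rates. Of 7 tested neural progenitor markers 1 was called, neurog3, at -0.47 ± 0.12 (SE, limma adjusted p = 0.0284, cross-hybridising). Of all named genes 5.3% were called lower. The mean level of the 7 was 1.40 to 1.62 on the DY7 arrays and 1.49 to 1.69 on the control arrays (log2 relative to the 75th percentile). Of 4 muscle markers 1 was called, the slow troponin gene tnnt1, at -0.996 ± 0.11 (adjusted p = 0.00137), and the mean of the 4 was 2.84 to 3.29 in DY7 and 3.46 to 3.55 in control. Of 3 neuron markers nefl was called lower (-0.48 ± 0.12, adjusted p = 0.0296), with means of 2.08 to 2.38 in DY7 and 2.23 to 2.64 in control. Of 2 epidermal markers krt78.6 was called lower (-0.46 ± 0.10, adjusted p = 0.0151, cross-hybridising), with means of -1.28 to -0.68 in DY7 and -0.90 to -0.66 in control.

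Of 7 tested markers of gut and liver, 3 were called higher, where 9.2% of all named genes were. They were fabp6 (1.2 ± 0.17, limma adjusted p = 0.00317), serpina1 (0.75 ± 0.12, adjusted p = 0.00622) and apob (0.55 ± 0.13, adjusted p = 0.0277). The other 4 did not pass, with log2 fold changes of 0.23 for alb, 0.072 for amy2a, -0.16 for cpa1 and -0.49 for fgg. The mean of the 7 was 3.00 to 3.19 in DY7 and 2.69 to 2.84 in control. Of 7 red cell markers epor was called higher (0.41 ± 0.11, adjusted p = 0.0402, and -0.062 without scaling) and ca1 lower (-2.10 ± 0.37, adjusted p = 0.00853), ca1 being above background on 2 of 4 DY7 arrays. The others did not pass, at 0.73 for slc25a37, 0.43 for fech, 0.41 for slc4a1, 0.055 for sptb and -0.32 for epb41. Of these, slc25a37 and epb41 were above background on 3 of 4 control arrays, and slc4a1 was called higher with the replicate block. The median log2 fold change of the 7 was 0.41, and -0.062 without scaling. Their mean level, which includes the low values of ca1, was -1.33 to -0.92 in DY7 and -1.24 to -0.89 in control. The single germ line marker tested, dnd1, named after its values were seen, had 0.50 ± 0.26 (adjusted p = 0.208, cross-hybridising). With the replicate block dnd1 was called higher (limma adjusted p = 0.0298). The calls of tnnt1, ca1, fabp6 and serpina1 were made without any 1 of the 8 arrays. Without scaling only those of tnnt1 (-1.47) and ca1 (-2.57) were made among the 9 called markers. The unscaled values were 0.73 for fabp6 (adjusted p = 0.183), 0.28 for serpina1 (adjusted p = 0.598) and 0.074 for apob (adjusted p = 0.896), and -0.94 for neurog3, -0.95 for nefl and -0.94 for krt78.6 (adjusted p = 0.0861, 0.0826 and 0.0875). With normexp none of the 9 markers was called, and after repair of extreme local backgrounds ca1, epor and apob were still not called. The probe of ca1 passed the filter only through the control arrays. Its log2 fold change was -0.71 with normexp and -0.49 after the repair. The call of krt78.6 was lost without control 4, and that of apob without DY7 2, DY7 3 or control 4. Those of neurog3 and nefl were lost without DY7 2, DY7 3, control 1 or control 4, and that of neurog3 also without control 3. The call of epor was made only without DY7 4 or control 2, and with median scaling epor and apob were not called. Each list held at least 1 marker well above background on all 8 arrays, and the part of these tissues in the levels of nek2, kif20a, top2a and smc4 was not tested.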

How the data were processed

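The deposited scanner files hold linear intensity values per spot, made by the authors with Agilent Feature Extraction 10.7.3.1 (slide 1) and 10.7.1.1 (slide 2), per the file headers. Their processed intensity is corrected for background within each array but not scaled between arrays. The authors' deposited series matrix holds log2 values, and the correlation of each column with that array's log2 processed intensity was at least 0.986. Its column medians were 5.24 to 5.25 for DY7 and 5.17 to 5.33 for control arrays, with their scaling between arrays not given in the sources used here. Of 45220 spots 1417 controls were left out, and no spot was saturated.

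Spots with an outlier flag were removed, spots of a probe averaged on the log2 scale, and the array's 75th percentile subtracted. A probe was tested where every array of DY7, of control or of both (4 per group) had it well above background. The 20289 probes were fitted with limma 3.58.1 in R 4.3.3 (lmFit and eBayes, two-sided), and each of 3436 named genes was read by its brightest probe, with a Benjamini-Hochberg adjusted p under 0.05 over these genes as the call. Accessions were named through a RefSeq table of assembly UCB_Xtro_10.0. No coordinates or sequences are given, and the promoter motif search that had been listed was not run.

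Members and lists were chosen with earlier results of these data known. The genes named were the members, and the tested partners, family members and other mitotic genes listed beside them. Further ones were called genes of each list, up to 6 for cell division and replication and up to 3 for regulators and tissues. The 2 with the smallest p where a division list had none, and the nearest 3 by correlation, were also named. Replicate numbers come from the sample titles. Deviations of same-numbered DY7 and control arrays from their group means correlated at 0.306, 0.107, 0.455 and 0.449, all over 0.1. The numbers were taken as pairs in the replicate block, and the main fit used no pairing. Because same-numbered arrays also share a slide, these correlations cannot tell pairing by replicate from a shared slide. Alternatives covered scaling, background correction, the matrix, the filter, blocks, single slides and each array left out. The scripts were tested on simulated data.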

Additional observations from a re-analysis of the deposited data

Results flagged for a closer look

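In 9 of 156 groups of 4 arrays looked at, 1 array was far from the other 3, which is 5.77%, and chance gives about 5%. All values are log2 signal relative to the array's 75th percentile. For kif20a, control 2 was at -2.63 and the other control arrays at -2.12 to -2.02. For smc4, control 3 was at -1.72 and the other control arrays at -2.07 to -2.01, so that control 3 came nearest to the DY7 arrays.

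DY7 4 stood apart for 3 cell division genes. It was at -0.24 for cenps, with the other DY7 arrays at -0.96 to -0.85. It was at 0.95 for ccnd2, with the others at 1.31 to 1.38, and at -2.37 for cdca2, with the others at -2.48 to -2.47. DY7 2 was at 1.79 for rfc3, with the other DY7 arrays at 1.47 to 1.52.

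Control 2 stood apart for 3 further genes. It was at 4.31 for nefl, with the other control arrays at 3.94 to 3.99. It was at -1.98 for itgb3, with the others at -1.55 to -1.49, and at -1.45 for hacd3, with the others at -0.98 to -0.92.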

How the results depend on the processing

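Counts below are of called probes, named genes, other cell division genes and DNA replication genes, which were 2867, 498, 4 and 3 as reported. They were 719, 116, 0 and 0 without scaling, 14, 7, 0 and 0 with normexp, 1497, 254, 4 and 0 with normexp after repair of extreme backgrounds (added after seeing the data), 562, 142, 1 and 0 with no filter, 6, 6, 0 and 0 within slide 1 and 0, 13, 0 and 0 within slide 2. For the division genes at 0, the number with an unadjusted p under 0.05 in limma's fit was 4, 2, 7 and 3 (no scaling, normexp, slide 1, slide 2). For the replication genes it was 2, 2, 3 and 2, and 9 with no filter and 10 with repaired normexp. Within slide 2, 3308 probes had one. The authors' matrix gave 7 division and 6 replication genes, quantile normalization 5 replication genes and median scaling 1. Probes called higher and lower were 1839 and 1028 as reported, 1035 and 1330 with median scaling, 1968 and 1656 with quantile normalization and 34 and 685 without scaling. The causes were not tested. With the replicate block, the paired fit, the counts were 5124, 851, 13 and 6. Leaving out 1 array gave 1091 to 3323 probes, 211 to 579 genes, 1 to 7 division and 1 to 2 replication genes. Probes and genes fell by over 1.5 times without DY7 2 (1091 and 213), DY7 3 (1191 and 216), control 1 (1147 and 213) or control 4 (1094 and 211). Replication genes were 1 without any single DY7 array, control 1 or control 4. Division genes were 7 without control 2, 1 without DY7 2 or DY7 3, and 2 without DY7 1, control 1 or control 4.

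The values of nek2, kif20a, top2a and smc4 moved by more than their within-group SD without scaling (nek2 0.67, kif20a 0.29, top2a 0.33, smc4 -0.055), with normexp (nek2 0.52, kif20a 0.16, smc4 0.10), with repaired normexp (nek2 0.73, kif20a 0.42) and for nek2 and smc4 within slide 1 (1.28 and 0.61) and slide 2 (1.00 and 0.22). Leaving out 1 array gave 1.079 to 1.207 for nek2, 0.62 to 0.82 for kif20a, 0.70 to 0.96 for top2a and 0.36 to 0.50 for smc4. Over the planned settings other than left-out arrays, the call of cep55 was kept in 7 of 11, of top2b in 6 of 11, of cep57 in 5 of 10, of cdca2 in 3 of 10, of pold1, rfc3 and nfyb in 5 of 11 each and of chaf1a in 4 of 11. Of the named genes called in the main fit, rfc3 (-0.086), chaf1a (-0.031), epor (-0.062), exosc3 (-0.0018) and gemin4 (-0.044) also turned without scaling. Of genes above called higher with the replicate block but not in the main fit, kif2c, cenpl, ccnd2, cdc14a and pds5a turned likewise. So did foxm1, mybl2, myb, lig1, mcm5 and slc4a1, while ofd1, cdk6, mcm9 and dnd1 kept their direction. Each member has 1 probe, so another probe could not be tried. The mean spot signal was not used here, and normexp ran on the median. Depth limits kif20a most, at 1.31 times local background on its faintest array.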
